A study of Mus musculus with 36 samples.

Results

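Transcript levels of 9 genes that stop the cell cycle or mark senescent cells were followed in the hippocampus of young and old mice. They are Cdkn1a, Cdkn2a, Cdkn2b, Cdkn2c and Cdkn2d, which encode inhibitors of cyclin-dependent kinases, Trp53 and its regulator Mdm2, and the lamin genes Lmnb1 and Lmna. The genes were chosen by name, with earlier results of these data known. All 9 were found among the 36172 gene entries of the count table. All animals were Cx3cr1-NuTRAP mice, in which tamoxifen activates a cre recombinase expressed from the Cx3cr1 promoter. Cx3cr1 is a chemokine receptor gene active in microglia and other brain macrophages, and cre adds a GFP tag to the ribosomes of those cells. Antibodies to the tag then isolate ribosome-bound RNA (translating ribosome affinity purification, TRAP), while input RNA represents the whole tissue. Input libraries came from 10 young early-induced mice (5 females, 5 males), 12 old early-induced mice (7 females, 5 males) and 7 old late-induced mice (5 females, 2 males). The young mice were 6 months old and the old mice 22 months old. The labels call the induction early or late without giving its age. The 7 TRAP libraries came from the same 7 animals as the old late-induced inputs. TRAP libraries of young and of old early-induced mice were not analysed here, so age was compared in whole tissue only. The study's title addresses how specific and efficient cre induction is at different ages.

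Cells answer DNA damage and other stress by halting division through a pair of linked pathways. In the first, the transcription factor p53, encoded by Trp53, switches on p21, encoded by Cdkn1a, and also Mdm2, whose product marks p53 for degradation. In the second, proteins of the INK4 family, encoded by Cdkn2a to Cdkn2d, block the cyclin D kinases and keep the retinoblastoma protein active. High p16Ink4a and p21 and loss of lamin B1 are widely used marks of cellular senescence, and microglia are a brain cell type that keeps dividing in adult life.

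The stretches before the transcription starts of Cdkn1a and Cdkn2a are shown because of their differences. Among the members tested, Cdkn1a differed most between old early-induced and young inputs, and Cdkn2a most between TRAP and input. In old late-induced against young inputs Lmna differed most. Sequences are from RefSeq on GRCm38.p6, within the 250 bases before each annotated start and without exon bases. Windows were searched for 8 of the members, namely Cdkn1a, Cdkn2a, Cdkn2b, Cdkn2c, Cdkn2d, Trp53, Mdm2 and Lmna, and Lmnb1 was left out of this search. Capitals mark motif matches. In Cdkn1a they mark p53 half-sites at -73 to -64 and -51 to -42 from the upstream start, at 29090979. Another annotated Cdkn1a start, at 29093769, had GC boxes but no p53 half-site. Its window is not shown because it began inside an exon. In the outer start of Cdkn2a, that of the p19Arf transcript, they mark an E2F site, TTTCCCGC, at -99 to -92 and a GC box, GGGCGG, at -48 to -43. In the inner start, that of the p16Ink4a transcript, they mark GAGGAAG, the core bound by the macrophage factor PU.1, at -20 to -14.
Cdkn1a, chr17:29090729-29090975, plus strand: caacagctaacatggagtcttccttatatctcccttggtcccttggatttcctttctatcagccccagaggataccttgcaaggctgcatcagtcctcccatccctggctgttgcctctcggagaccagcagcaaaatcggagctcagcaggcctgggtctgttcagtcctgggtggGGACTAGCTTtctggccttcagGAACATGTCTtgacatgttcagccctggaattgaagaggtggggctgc
Cdkn2a outer start, chr4:89294654-89294869, minus strand: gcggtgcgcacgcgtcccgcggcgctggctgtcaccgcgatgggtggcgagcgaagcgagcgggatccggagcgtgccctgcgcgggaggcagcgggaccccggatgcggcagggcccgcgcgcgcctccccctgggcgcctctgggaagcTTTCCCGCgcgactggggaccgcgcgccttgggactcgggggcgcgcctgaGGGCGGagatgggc
Cdkn2a inner start, chr4:89282193-89282442, minus strand: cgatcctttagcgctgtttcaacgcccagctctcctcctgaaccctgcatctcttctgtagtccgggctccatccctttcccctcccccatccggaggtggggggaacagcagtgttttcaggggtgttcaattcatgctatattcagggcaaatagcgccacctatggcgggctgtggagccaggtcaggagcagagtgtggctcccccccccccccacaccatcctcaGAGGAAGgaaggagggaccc

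Motifs were searched on both strands in 32851 RefSeq windows of the same length. A p53 half-site was present in 7.13% of them, TTTCCCGC in 0.895%, GGGCGG in 32.7% and GAGGAAG in 10.6%. The E2F variant TTTGGCGC was present in 0.417% of windows and the TATA box TATAAA in 12.4%. A match describes letters only and shows no binding. The marked matches do not overlap each other. Windows of Mdm2, Lmna, Trp53 and Cdkn2d each held 1 p53 half-site. The Cdkn2a counts of the table join the p19Arf and p16Ink4a transcripts, so the levels below do not tell which start was used.

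Libraries held between 12.9 and 20.4 M estimated counts. Values are given as counts scaled to a common library total (CPM), and fold changes and tests come from edgeR's quasi-likelihood fits with TMM scaling, called at a Benjamini-Hochberg adjusted p under 0.05 over all genes tested. Cx3cr1 itself averaged 25.2 ± 2.04, 35.1 ± 2.33, 40.8 ± 5.34 and 647 ± 103 CPM in young, old early-induced and old late-induced inputs and in TRAP (SD, n = 10, 12, 7 and 7). The summed CPM of 15 microglial marker genes ran from 405 to 457 in young, 502 to 604 in old early-induced and 533 to 732 in old late-induced inputs, and from 9130 to 12800 in TRAP. Other cell types also differed between libraries. Summed choroid plexus markers spanned 48.4 to 4170 CPM within the old early-induced inputs alone, and blood markers reached 2310 CPM in replicate 5 of that group against 413 or less in its other 11 libraries. In bulk RNA, fewer cells of a type and less RNA per cell cannot be told apart. The S numbers in the sample names ran in blocks by group (1 to 23, 25 to 38 and 39 to 57 for old early-induced, old late-induced and young), so whatever order they record and the group cannot be told apart. Each library is labelled as 1 animal and fraction.

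Levels of different genes were compared per kilobase of exon. Cdkn2d, which encodes p19Ink4d, an INK4 inhibitor abundant in neurons, was the highest of the 9 in every group, at 32.8 ± 1.83, 35.6 ± 3.05, 34.4 ± 1.93 and 29.4 ± 3.44 CPM per kb in the same order (SD, n = 10, 12, 7 and 7). Mdm2 was next in each group, at 11 to 12.4 CPM per kb. In young inputs Cdkn1a and Lmna followed at 7.03 and 6.91 CPM per kb with overlapping ranges, then Trp53 at 4.73 and Lmnb1 at 3.26. In old early-induced inputs Lmna came after Mdm2 at 7.8, and Trp53 at 4.59 and Cdkn1a at 4.26 overlapped. In old late-induced inputs Lmna came after Mdm2 at 9.1, followed by Cdkn1a at 5.56 and Trp53 at 4.67 with overlapping ranges. Cdkn2b, Cdkn2c and Cdkn2a closed the order in every input group, all under 0.7 CPM per kb. In TRAP, Mdm2, Cdkn1a, Trp53 and Lmna overlapped from one to the next at 11, 9.28, 8.55 and 7.69 CPM per kb, and Cdkn2a at 3.0 stood above Cdkn2c at 1.14 and Cdkn2b at 0.932 with overlapping ranges.

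**Figure D1:**
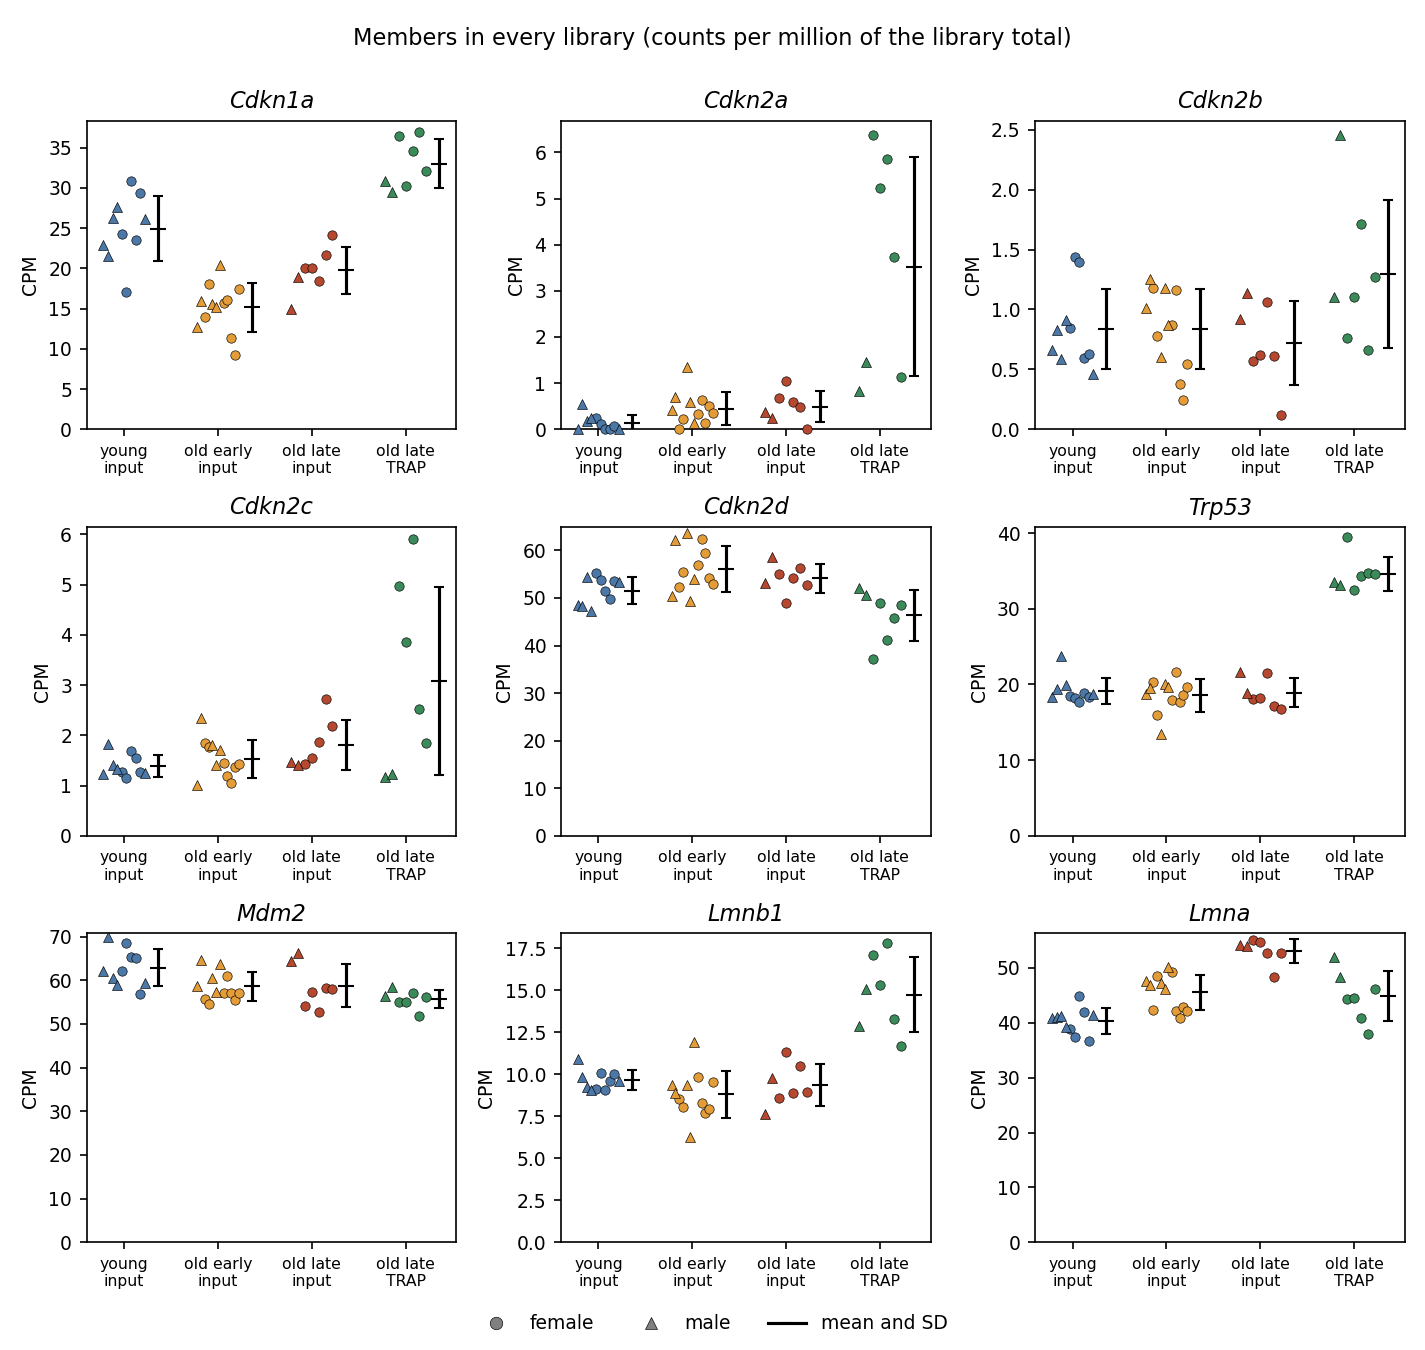
CPM of each of the 9 genes in every library (y axis, from 0) in the 4 groups (x axis). Circles are females, triangles males, and black marks the mean and SD. By mean, Cdkn1a is lower in both old input groups than in young inputs, with overlapping ranges, and highest in TRAP. Lmna has its highest mean in the old late-induced inputs, and Cdkn2a is near 0 in the inputs.

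With age, the whole-tissue level of the p21 gene Cdkn1a fell and that of the lamin A/C gene Lmna rose, while Trp53, Lmnb1, Cdkn2b and Cdkn2c passed no test. Of the 8 members tested, 2 were called higher (Lmna, Cdkn2d) and 1 lower (Cdkn1a) in old early-induced against young inputs, where 13% of all 14948 genes tested were called higher and 12.6% lower. In old late-induced against young inputs, 1 of 8 was higher (Lmna) and 1 lower (Cdkn1a), against 17% and 17.5% of all genes. The members' median log2 fold changes were -0.02 and -0.03, beside 0.01 over all genes in both comparisons. Both comparisons share the 10 young inputs. Cdkn2a stayed below the expression filter in the inputs and is described by its counts.

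Cdkn1a (gene 12575, chromosome 17, 29090986 to 29100722, plus strand) encodes p21, the inhibitor through which p53 stops the cycle. Its level was 17.1 to 30.9 CPM in the 10 young inputs (median 25.2), from 9.23 to 20.4 in the 12 old early-induced inputs (median 15.7) and from 14.9 to 24.2 in the 7 old late-induced inputs (median 20.1). Most old early-induced libraries lay below every young library, and the old late-induced libraries lay between the 2 groups and overlapped both. The means were 25 ± 4.02, 15.1 ± 3.0 and 19.8 ± 2.88 CPM (SD, n = 10, 12 and 7). In old early-induced against young inputs the level was 0.605 of the young level, a log2 change of -0.72 ± 0.11 (SE; edgeR adjusted p = 9.87e-06). In old late-induced against young inputs the log2 fold change was -0.35 ± 0.12 (SE; edgeR adjusted p = 0.0288). Leaving out 1 library at a time kept the first value between -0.78 and -0.68 and always called. The second was not called without old late-induced replicate 1, 2 or 5 or young replicate 7 or 9 (adjusted p 0.0506 to 0.0864), nor in females alone (-0.26, adjusted p = 0.276). The direct difference between the old groups, 0.38 ± 0.12 higher in late-induced mice (SE, log2), missed the threshold (edgeR adjusted p = 0.203).

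Cdkn2a (gene 12578, chromosome 4, 89274473 to 89294619, minus strand) encodes the INK4 inhibitor p16Ink4a and, from the outer start, p19Arf, which holds Mdm2 away from p53. In young inputs it had 0 to 9 estimated counts per library with a median of 1.5, and 4 of the 10 libraries were at 0. In old early-induced inputs it had 0 to 18 counts (median 6.6), with 1 of 12 at 0. In old late-induced inputs it had 0 to 17 counts (median 8.0), with 1 of 7 at 0. The ranges overlapped, and a library at 0 is compatible with up to 3 counts. Mean levels were 0.139 ± 0.174, 0.446 ± 0.36 and 0.491 ± 0.336 CPM (SD, n = 10, 12 and 7). Both old groups exceeded the young group in two-sided permutation tests of CPM, with p = 0.012 for old early-induced (100000 resamples, 0.0201 adjusted over 3 tests) and p = 0.0134 for old late-induced inputs (exact, 0.0201 adjusted). The old groups were not told apart (exact permutation p = 0.78). The 22 tests that left out 1 library of the early comparison gave p from 0.0024 to 0.0224, and the 17 of the late comparison 0.0025 to 0.0325. In edgeR fits that kept low genes, the log2 fold changes of 1.63 (adjusted p = 0.0492) and 1.97 (adjusted p = 0.0257) rest on these few counts. Old early-induced replicate 5, which had the most blood and choroid plexus RNA of its group, also had the highest Cdkn2a there, 1.36 CPM. The summed microglial markers were higher in both old groups as well, and their part in the Cdkn2a difference was not tested.

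Cdkn2b (gene 12579, chromosome 4, 89306289 to 89311032, minus strand), the p15Ink4b gene beside Cdkn2a, was also close to the floor, at 6 to 24 counts per young, 4 to 20 per old early-induced and 2 to 18 per old late-induced library. Its means of 0.837, 0.839 and 0.721 CPM lay within 1 SD of each other, and it was not called (log2 fold change -0.21 ± 0.32 in the late comparison, SE, edgeR adjusted p = 0.653). Cdkn2c (gene 12580, chromosome 4, 109660876 to 109665372, minus strand) encodes p18Ink4c. It ranged from 1.14 to 1.82 CPM in young (median 1.3), 1.01 to 2.35 in old early-induced (median 1.43) and 1.4 to 2.72 in old late-induced inputs (median 1.55). The groups overlapped and the late difference was 0.37 ± 0.18 (SE, log2; edgeR adjusted p = 0.102).

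Cdkn2d (gene 12581, chromosome 9, 21288464 to 21291209, minus strand) ranged from 47.2 to 55.2 CPM in young (median 52.4), 49.4 to 63.6 in old early-induced (median 54.8) and 48.9 to 58.6 in old late-induced inputs (median 54.1). The groups overlapped, but 6 of 12 old early-induced and 2 of 7 old late-induced libraries lay above every young library. The rise in old early-induced inputs was 0.12 ± 0.04 (SE, log2; edgeR adjusted p = 0.0385). It was not called in 16 of 29 fits that left out 1 library, in females alone (adjusted p = 0.228), without the filter (0.0573) or with only the groups compared in the fit (0.0642).

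Trp53 (gene 22059, chromosome 11, 69580359 to 69591873, plus strand), which encodes p53, ranged from 17.7 to 23.7 CPM in young (median 18.6), 13.4 to 21.6 in old early-induced (median 19.1) and 16.8 to 21.6 in old late-induced inputs (median 18.2). The groups overlapped, with 3 of 12 old early-induced and 2 of 7 old late-induced libraries below every young library. The log2 fold changes were -0.04 ± 0.07 and -0.01 ± 0.08 (SE; edgeR adjusted p = 0.728 and 0.901). Mdm2 (gene 17246, chromosome 10, 117688905 to 117710716, minus strand), the ubiquitin ligase of p53 and itself a p53 target, ranged from 56.9 to 69.8 CPM in young (median 62.1), 54.5 to 64.6 in old early-induced (median 57.3) and 52.8 to 66.2 in old late-induced inputs (median 57.9). Its log2 fold changes of -0.10 ± 0.04 and -0.09 ± 0.04 were not called (SE; edgeR adjusted p = 0.0511 and 0.0982). In both old groups some libraries lay below every young library, 3 of 12 and 2 of 7. The early difference lay at the threshold: 18 of 29 fits that left out 1 library called it lower, as did DESeq2 (adjusted p = 0.0405), RLE scaling (0.0441), the fit of only the groups compared (0.0311) and that of females alone (-0.15, 0.0497). The late difference was called lower in females alone (-0.18, adjusted p = 0.0169) and without old late-induced replicate 1 or 2 (0.0483 and 0.0466).

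Lmna (gene 16905, chromosome 3, 88481149 to 88503332, minus strand) encodes lamins A and C of the nuclear lamina. It ranged from 36.6 to 44.9 CPM in young (median 40.9), 40.9 to 50.2 in old early-induced (median 46.5) and 48.4 to 55 in old late-induced inputs (median 53.9). Every old late-induced library lay above every young library, and the old early-induced libraries overlapped both. Means were 40.4 ± 2.39, 45.6 ± 3.23 and 53.1 ± 2.23 CPM (SD, n = 10, 12 and 7). Against young inputs the log2 fold changes were 0.18 ± 0.04 and 0.40 ± 0.04 in the early-induced and the late-induced group (SE; edgeR adjusted p = 0.000776 and 4.68e-08). Among old early-induced inputs, the 5 males ranged from 46.2 to 50.2 CPM and the 7 females from 40.9 to 49.3, and in females alone the early difference of 0.15 was not called (adjusted p = 0.135). The interaction of age and sex was 0.06 ± 0.08 (SE, log2; edgeR adjusted p = 0.757).

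Lmna was also the 1 member of 8 called between the old groups, higher in late-induced inputs, in a comparison in which 0.0268% of all genes were called higher and 0.00669% lower (4 and 1 of 14948). The log2 fold change was 0.22 ± 0.04 (SE; edgeR adjusted p = 0.0257), and the ranges overlapped. The call was lost without old early-induced replicate 3, 9 or 12 or old late-induced replicate 2, 3, 4 or 7 (adjusted p 0.0555 to 0.0841) and with only the 2 groups in the fit (0.136), while the fold change stayed between 0.21 and 0.24. Summed marker levels were unequal too. In late-induced and early-induced inputs their medians were 2020 and 109 CPM for choroid plexus, 536 and 251 for blood, 5490 and 4460 for oligodendrocytes and 635 and 553 for microglia, although 0 genes of these 4 lists were called between the old groups. Their part in the Lmna difference was not tested. The members' median log2 fold change between the old groups was 0.06, beside -0.0 over all genes.

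Lmnb1 (gene 16906), which encodes lamin B1 and is lost in many senescent cells, ranged from 9.05 to 10.9 CPM in young (median 9.62), 6.25 to 11.9 in old early-induced (median 8.72) and 7.63 to 11.3 in old late-induced inputs (median 8.95). The old groups spread wider than the young group and overlapped it, with 7 of 12 and 4 of 7 libraries below every young library and 1 in each above. The log2 fold changes were -0.14 ± 0.08 and -0.05 ± 0.09 (SE; edgeR adjusted p = 0.222 and 0.729), and Lmnb1 was not called.

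**Figure D2:**
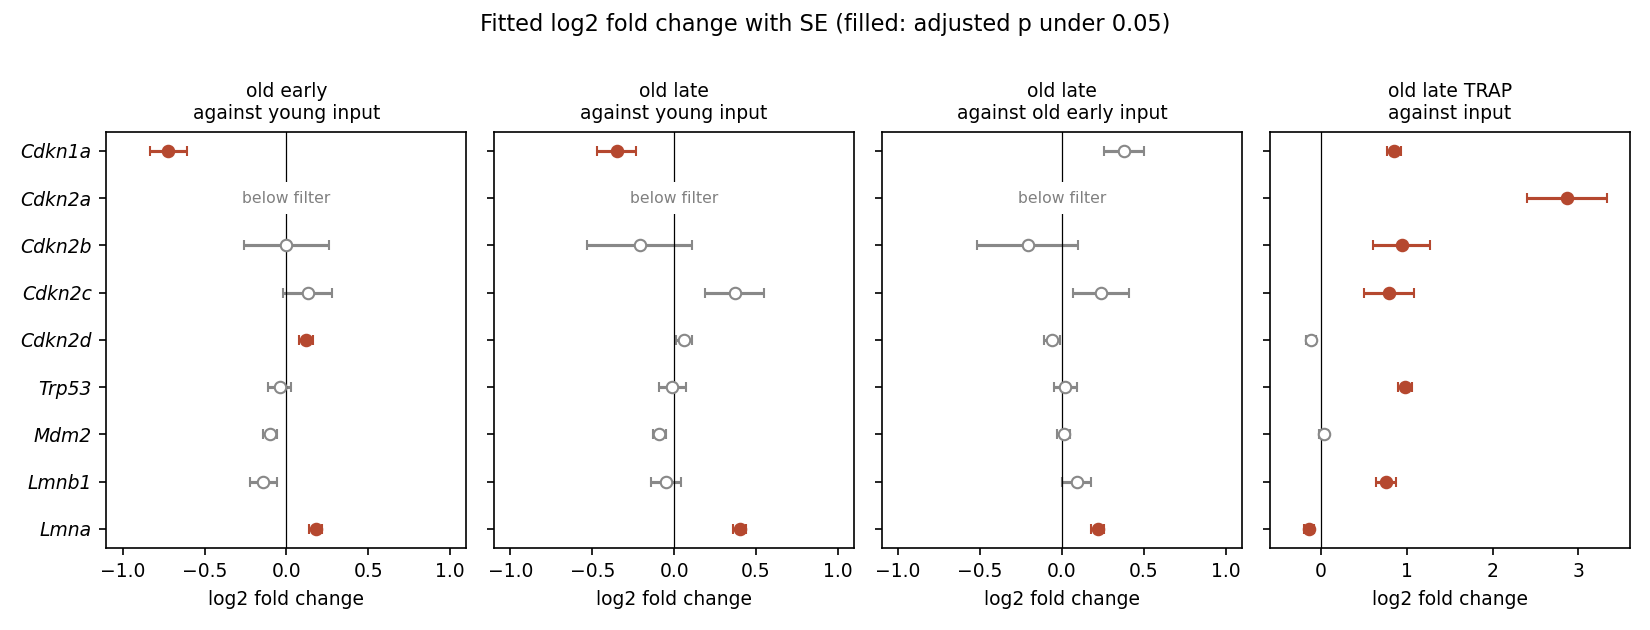
Fitted log2 fold change with its SE (x axis) of the 9 genes (y axis) in 4 comparisons. Filled points were called at an adjusted p under 0.05. The TRAP panel has a wider x axis, and Cdkn2a reaches 2.87 and 5 other genes lie between 0.76 and 0.98.

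In old late-induced mice, TRAP RNA was compared with the input RNA of the same animals. The fit behind the p-values below had sex but not the animal as a term. The fits below that left out 1 library also lacked it. A fit of all libraries with the animal as a block changed no member's call. Its edgeR adjusted p was 0.0127 for Cdkn2b, 0.0371 for Cdkn2c and 0.0196 for Lmna. Of the 8 members that also passed the expression filter in the inputs, 5 were higher in TRAP (Trp53, Cdkn2b, Cdkn1a, Cdkn2c, Lmnb1) and 1 was lower (Lmna), where 30.4% of all 14596 genes tested were called higher and 28.8% lower. Their median log2 fold change was 0.78, beside -0.02 over all genes. Cdkn2a, the ninth, was also called higher but passed the filter only through the TRAP libraries, in which it was high. The 15 microglial markers lay between 2.93 and 4.45 on the same scale (median 4.29) and 6 border macrophage markers between 3.45 and 3.96, while 8 endothelial markers lay between 0.56 and 1.7. RNA of other cells remained in TRAP. Summed neuron markers had medians of 5560 CPM in TRAP and 6920 in the old late-induced inputs. The medians were 3650 and 4750 for astrocyte markers and 1950 and 5490 for oligodendrocyte markers. TRAP levels are thus not those of microglia alone. With upper quartile scaling the median of all genes moved to -0.16 and the split to 3280 higher and 6372 lower genes, against 4442 and 4198 with TMM.

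Cdkn2a had the largest difference. The TRAP libraries of animals 1 to 7 held 12, 19, 116.7, 76, 82.4, 68 and 23.3 counts, against 6, 4, 12, 17, 10, 8 and 0 in the inputs of the same animals. In CPM the TRAP libraries ranged from 0.828 to 6.37 (median 3.74) and the inputs from 0 to 1.05 (median 0.488). TRAP exceeded input in 7 of 7 animals, by 2.25 to 9.94 times, with at least 6.28 times in animal 7, whose input was at 0 and was set to the floor of 3 counts. The groups overlapped because the lowest TRAP library, of male animal 1, lay below the highest input. The fitted log2 fold change was 2.87 ± 0.47 (SE; edgeR adjusted p = 6.46e-05). Since the gene entered this fit through its TRAP libraries, the values by animal describe it better than this p.

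TRAP levels of Cdkn2a differed widely between animals. In the order of animals 1 to 7 they were 0.828, 1.46, 6.37, 5.23, 5.86, 3.74 and 1.14 CPM, so both males and female 7 were low. In the same order the summed microglial markers of TRAP were 9150, 9130, 12800, 10100, 12400, 9700 and 9240 CPM. The 10 summed proliferation genes were 27.1, 25.8, 47.5, 35.1, 45.9, 33.8 and 26.5 CPM. Animals 3, 5, 4 and 6 ranked highest, in that order, for Cdkn2a, for the microglial markers and for the proliferation genes, while both sums spanned a much narrower range than Cdkn2a. Their part in the spread of Cdkn2a was not tested.

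Cdkn2c was higher in TRAP in only 3 of 7 animals, females 3, 4 and 5. Its TRAP levels were 4.97, 3.86 and 5.9 CPM in these, 2.53 and 1.85 in females 6 and 7, and 1.17 and 1.23 in males 1 and 2, and inputs ranged from 1.4 to 2.72 CPM. The ratio of TRAP to input was 2.49 to 3.48 in the 3 females and 0.796 to 0.93 in the other 4 animals. The pooled log2 fold change, 0.79 ± 0.29 (SE; edgeR adjusted p = 0.0268), is a mean over these unlike animals. It was not called in 5 of 14 fits that left out 1 library, those without input or TRAP replicate 3 or 5 or input replicate 4 (adjusted p 0.0517 to 0.0721), nor with upper quartile scaling (0.0556).

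**Figure D3:**
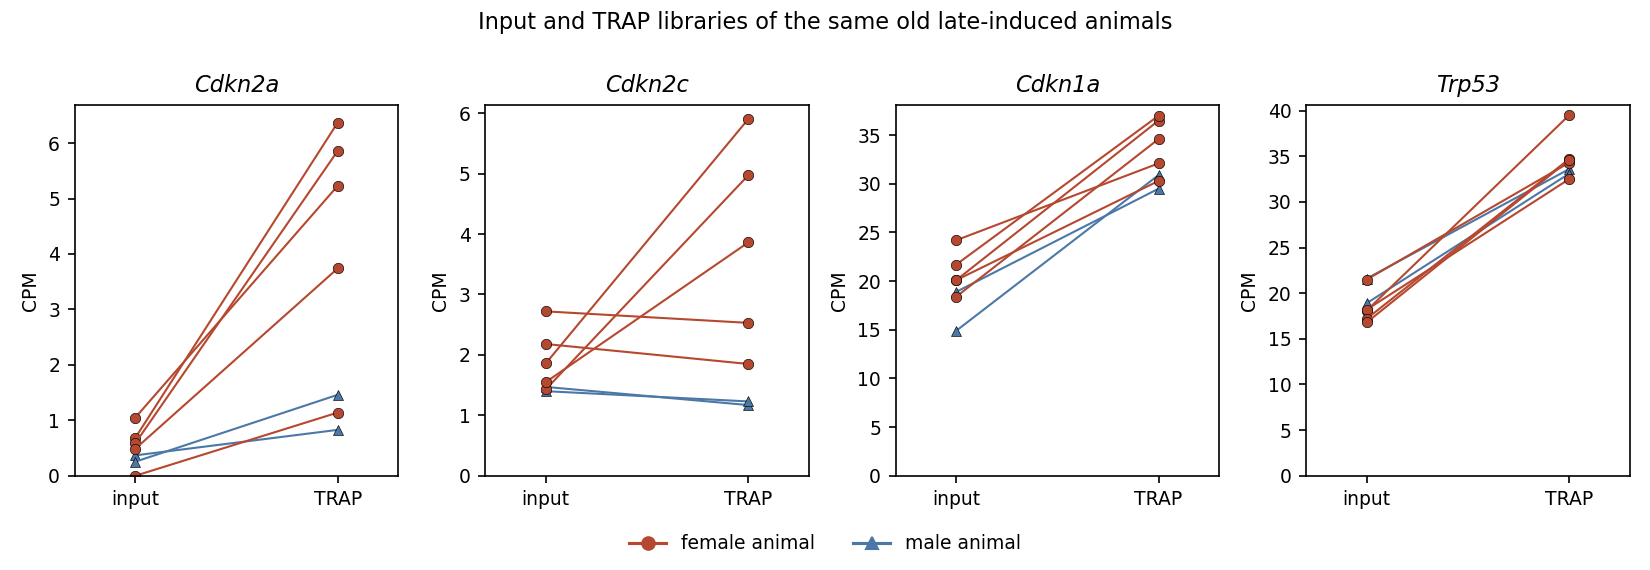
CPM (y axis, from 0) of Cdkn2a, Cdkn2c, Cdkn1a and Trp53 in the input and TRAP libraries of the 7 old late-induced animals, with a line joining the libraries of 1 animal. Cdkn1a and Trp53 rise in every animal, by steps that vary between animals, whereas Cdkn2c rises only in females 3, 4 and 5.

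Cdkn1a and Trp53 were enriched in every animal, to unlike degrees. Animal 1 had the highest ratio of TRAP to input for Cdkn1a and the lowest for Trp53 (2.07 and 1.55), and animal 7 the lowest for Cdkn1a (1.32) with 2.06 for Trp53. Cdkn1a ranged from 29.5 to 37 CPM in TRAP (median 32.1) and from 14.9 to 24.2 in the inputs (median 20.1), with no overlap. The ratio was above 1 in 7 of 7 animals and the log2 fold change 0.85 ± 0.08 (SE; edgeR adjusted p = 1.03e-07). Trp53 ranged from 32.5 to 39.5 CPM in TRAP (median 34.3) and from 16.8 to 21.6 in the inputs (median 18.2), with no overlap. Its ratio was 1.55 to 2.19 and the log2 fold change 0.98 ± 0.08 (SE; edgeR adjusted p = 8.83e-09). Both differences lay below those of all 15 microglial markers.

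Lmnb1 was higher in TRAP in 7 of 7 animals, at 11.7 to 17.8 CPM (median 15.1) against 7.63 to 11.3 in the inputs (median 8.95), without overlap. The log2 fold change was 0.76 ± 0.12 (SE; edgeR adjusted p = 3.3e-05). Lmna went the other way, at 38 to 52.0 CPM in TRAP (median 44.5) against 48.4 to 55 in the inputs (median 53.9), and was lower in 7 of 7 animals. Its log2 fold change was small, -0.14 ± 0.06 (SE; edgeR adjusted p = 0.0394), and was not called in 6 of 14 fits that left out 1 library (adjusted p 0.0547 to 0.0922), without the filter (0.124) or without sex in the model (0.055).

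Cdkn2b reached 12 to 32 counts per TRAP library against 2 to 18 per input, and was higher in 7 of 7 animals, by 1.08 to 2.16 times in animals 1 to 6 and by at least 7.0 times in animal 7, whose input held 2 counts. The log2 fold change was 0.94 ± 0.33 (SE; edgeR adjusted p = 0.0233), and was not called without TRAP replicate 2 or 5 (adjusted p = 0.0672 and 0.0597) or in females alone (0.0654). Mdm2 and Cdkn2d were not called. Mdm2 held 51.8 to 58.4 CPM in TRAP and 52.8 to 66.2 in the inputs (log2 fold change 0.03 ± 0.05, SE, edgeR adjusted p = 0.577). With upper quartile scaling its value was -0.11 and called lower (adjusted p = 0.0481), as the median of all genes moved from -0.02 to -0.16 with that scaling. Cdkn2d held 37.1 to 52.0 CPM in TRAP and 48.9 to 58.6 in the inputs, with a log2 change of -0.12 ± 0.06 (SE; edgeR adjusted p = 0.0749). It was called lower with upper quartile scaling (-0.27, adjusted p = 0.00129) and library size scaling (-0.23, 0.00609), which moved the median of all genes to -0.16 and -0.13. DESeq2 (-0.14, adjusted p = 0.0458) and the fits without input replicate 1 or 4 (0.0485 and 0.0411) also called it lower.

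No member differed by sex at the threshold. In the inputs, 0 of 8 members were called between males and females, beside 0.174% of all genes, and Mdm2 (0.07 ± 0.03 higher in males, SE, log2) was the 1 member with an unadjusted p under 0.05 (edgeR adjusted p = 0.424). DESeq2 and limma voom also called 0 members. For the interaction of age and sex edgeR called 0 of 8 members, 0 of which had an unadjusted p under 0.05, and 0.0% of all genes, and DESeq2 called 0 members. In TRAP, 0 of 9 members were called between the 2 males and 5 females, beside 0.061% of all genes, and 2 had an unadjusted p under 0.05. Cdkn2a was 1.14 ± 0.448 CPM in males (SD, n = 2) and 4.47 ± 2.11 in females (SD, n = 5), a log2 change of -1.98 ± 0.64 (SE; edgeR adjusted p = 0.257). Cdkn2c was 1.2 ± 0.0406 CPM in males (SD, n = 2) and 3.82 ± 1.67 in females (SD, n = 5), a log2 change of -1.67 ± 0.50 (SE; edgeR adjusted p = 0.231). The interaction of fraction and sex called 0 of 9 members and 0.0206% of all genes, with -1.27 ± 0.77 for Cdkn2a and -1.20 ± 0.64 for Cdkn2c (SE, log2; edgeR adjusted p = 0.497 and 0.431). These contrasts within TRAP were chosen after the values were seen.

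Genes of the same pathways were counted from lists. These were chosen with earlier results of these data known, so the counts are no independent test. Each count is read against the share of all genes called in the same direction. Those shares were 13% higher and 12.6% lower in old early-induced against young inputs, 17% and 17.5% in old late-induced against young inputs, and 30.4% and 28.8% in TRAP against input. In old early-induced against young inputs, the list of 20 p53 target genes (19 tested) had 2 higher genes and 1 lower gene, with a median log2 fold change of 0.05. In old late-induced inputs it had 4 higher and 3 lower (median 0.09), and in TRAP 7 higher and 6 lower (median -0.0). These counts lay below the shares of all genes in the first comparison and near them in the other two. Btg2, which slows proliferation, rose from 17.5 ± 2.97 CPM to 29.9 ± 11.2 in the early-induced and 26.8 ± 9.87 in the late-induced old group (SD, n = 10, 12 and 7), with log2 fold changes of 0.79 ± 0.18 and 0.63 ± 0.20 (SE; edgeR adjusted p = 0.0015 and 0.0162). Gadd45a, a stress gene of the DNA damage response, rose by 0.25 ± 0.08 and 0.46 ± 0.09 (SE, log2; edgeR adjusted p = 0.0224 and 0.000323). Phlda3, an inhibitor of Akt signalling, and Zmat3, an RNA-binding p53 target, rose in old late-induced inputs by 0.35 and 0.15. Trp53inp1, which aids p53 activity, fell by 0.27 and 0.39 on the log2 scale, and Plk2 and Tnfrsf10b fell by 0.16 and 0.44 in old late-induced inputs. Cdkn1a fell while Btg2 and Gadd45a rose in the same libraries. In TRAP, the apoptosis genes Pmaip1 (1.27 ± 0.16) and Bax (0.44 ± 0.06), the stress gene Sesn1 (0.36 ± 0.05) and Btg2 (1.06 ± 0.18) were higher than in input, and Phlda3, Zmat3, Ei24 and Perp were lower (log2 fold changes -0.56, -0.43, -0.27 and -1.34).

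Of 8 p53 regulators, 2 fell with age in the early-induced group, 3 in the late-induced group, and 0 rose (medians -0.07 and -0.16), where 12.6% and 17.5% of all genes fell. Trp53bp1, a DNA break response protein, fell from 133 ± 2.57 CPM in young to 113 ± 9.57 and 111 ± 8.11 (SD, n = 10, 12 and 7), with log2 fold changes of -0.24 ± 0.04 and -0.29 ± 0.05 (SE; edgeR adjusted p = 7.82e-05 and 4.4e-05). Atm, the kinase that signals DNA breaks to p53, fell by 0.24 and 0.23 on the log2 scale. Mdm4, a partner of Mdm2 in holding p53 down, fell by 0.58 in old late-induced inputs (SE 0.12, edgeR adjusted p = 0.000291). In TRAP, Chek2, a checkpoint kinase, and Ppm1d, a phosphatase that ends p53 signalling, were higher by 1.17 ± 0.23 and 0.34 ± 0.10, and Trp53bp1 and Atm were lower (-0.61 ± 0.05 and -0.21 ± 0.08, SE, log2). The 2 higher and 2 lower regulators in TRAP became 1 higher and 5 lower with upper quartile scaling. That scaling called 3280 of all 14596 genes higher and 6372 lower and moved their median to -0.16.

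The other inhibitors of the p21 family, Cdkn1b and Cdkn1c, were called in none of the 4 comparisons. Cdkn1b, which encodes p27, was at 42.6 ± 2.96, 45 ± 3.43 and 45.1 ± 4.41 CPM in the 3 input groups and 39.2 ± 1.99 in TRAP (SD, n = 10, 12, 7 and 7). Cdkn1c, which encodes p57, was more variable, at 13.3 ± 7.64, 14.1 ± 14.4, 19.3 ± 12.4 and 12.3 ± 4.5 CPM. Of 14 Rb, E2F, cyclin and kinase genes, 1 rose with age in the early-induced group, 2 in the late-induced group, and 0 fell, at or below the 13% and 17% of all genes that rose. Ccnd1, the cyclin D1 gene, rose from 66.2 ± 5.41 CPM to 83.9 ± 9.2 and 80.2 ± 10.5 (SD, n = 10, 12 and 7), by 0.34 ± 0.06 and 0.26 ± 0.07 (SE, log2; edgeR adjusted p = 0.000164 and 0.00522), and E2f1 rose in old late-induced inputs by 0.33 ± 0.10. In TRAP 8 were higher and 3 lower, beside 30.4% and 28.8% of all genes. The Rb relative Rbl1 (2.43 ± 0.20), Cdk2 (1.57 ± 0.18), Ccnd1 (0.90 ± 0.08) and Cdk4 (0.74 ± 0.09) were higher, and Ccnd2, Ccne1 and Ccne2 lower (-0.41, -0.42 and -0.30, all log2 fold changes).

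Of 10 proliferation genes, 8 were tested. Mki67, which encodes the Ki-67 antigen, fell from 2.22 ± 0.481 CPM in young to 1.28 ± 0.326 and 1.43 ± 0.289 (SD, n = 10, 12 and 7), with log2 fold changes of -0.78 ± 0.16 and -0.63 ± 0.18 (SE; edgeR adjusted p = 0.000408 and 0.00768). Top2a, the topoisomerase of dividing cells, fell in old early-induced inputs only (-1.01 ± 0.32, edgeR adjusted p = 0.0174). Its mean there was 0.46 ± 0.259 CPM, against 0.943 ± 0.326 for young mice (SD, n = 12 and 10). The late-induced old group stood near the young mean, at 0.957 ± 0.576 CPM (SD, n = 7), and Top2a was not called there. Means this low rest on few counts per library. In TRAP, 4 of the 7 that were also tested in the inputs were higher and 0 lower, beside 30.4% and 28.8% of all genes, and Cdk1 (2.86 ± 0.51), which passed the filter through TRAP only, was higher as well. The higher genes included Top2a (2.28 ± 0.41), Mcm5 (1.08 ± 0.13) and Mcm2 (0.73 ± 0.16), whereas Mki67 was at 1.65 ± 0.9 CPM in TRAP and 1.43 ± 0.289 in input (SD, n = 7 each) and was not called.

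Among 13 nuclear envelope genes, 2 rose and 4 fell in old early-induced inputs, 4 rose and 2 fell in old late-induced inputs, and 7 were higher and 2 lower in TRAP. Of all genes, 13% rose and 12.6% fell, 17% rose and 17.5% fell, and 30.4% were higher and 28.8% lower in these comparisons. Sun2, which links the lamina to the cytoskeleton, rose from 40.2 ± 2.36 CPM to 47.8 ± 6.34 and 48.7 ± 5.5 with age (SD, n = 10, 12 and 7) and reached 151 ± 28.9 CPM in TRAP (SD, n = 7; log2 fold change 1.74 ± 0.11, edgeR adjusted p = 4.95e-10). Tmpo, a lamin-binding protein gene, rose by 0.22 and 0.17 with age and was higher in TRAP by 0.51. Lmnb2, the other B-type lamin gene, fell in old early-induced inputs by 0.22 (SE 0.05, edgeR adjusted p = 0.00098). Sun1 and Syne1 fell in both old groups, by 0.12 and 0.20 and by 0.15 and 0.23 on the log2 scale.

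Of 35 genes of secreted factors linked with senescence, 22 were tested in the inputs, and 9 rose and 0 fell in old early-induced inputs and 12 rose and 1 fell in old late-induced inputs, with medians of 0.45 and 0.65. Beside these, 13% of all genes rose and 12.6% fell in the early-induced and 17% rose and 17.5% fell in the late-induced group. Mmp12 passed the filter through the old libraries, in which it was high. Tgfb1, a growth factor gene, rose from 5.35 ± 0.911 CPM to 8.6 ± 1.32 and 9.05 ± 2.34 (SD, n = 10, 12 and 7), and was at 152 ± 27.9 CPM in TRAP (SD, n = 7; log2 fold change over input 4.18 ± 0.13, edgeR adjusted p = 4.03e-14). Spp1, which encodes osteopontin, rose by 1.14 ± 0.24 and 1.50 ± 0.27, and Csf1, a growth factor of microglia, by 0.33 ± 0.06 and 0.42 ± 0.07 (SE, log2). Mmp12, a macrophage elastase gene, was at 0 counts in all 10 young inputs and at 0.481 ± 0.403 and 0.861 ± 0.695 CPM in the old groups (SD, n = 12 and 7). In TRAP 25 were tested, of which 17 were higher and 4 lower, with a median of 2.45. Of these, Il1b, Ccl2, Ccl4, Ccl5 and Ccl8 were not tested in the inputs, passed through TRAP and were all higher. Among the other 20, 12 were higher and 4 lower with a median of 1.08, beside 30.4% and 28.8% of all genes. Several of these factors, Tgfb1, Spp1 and Ccl4 among them, are also made by microglia, and the microglial markers rose in the same inputs. Their part in the list's rise was not tested. Between the 2 old input groups, 0 genes of any of these lists were called other than Lmna among the members.

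**Figure D4:**
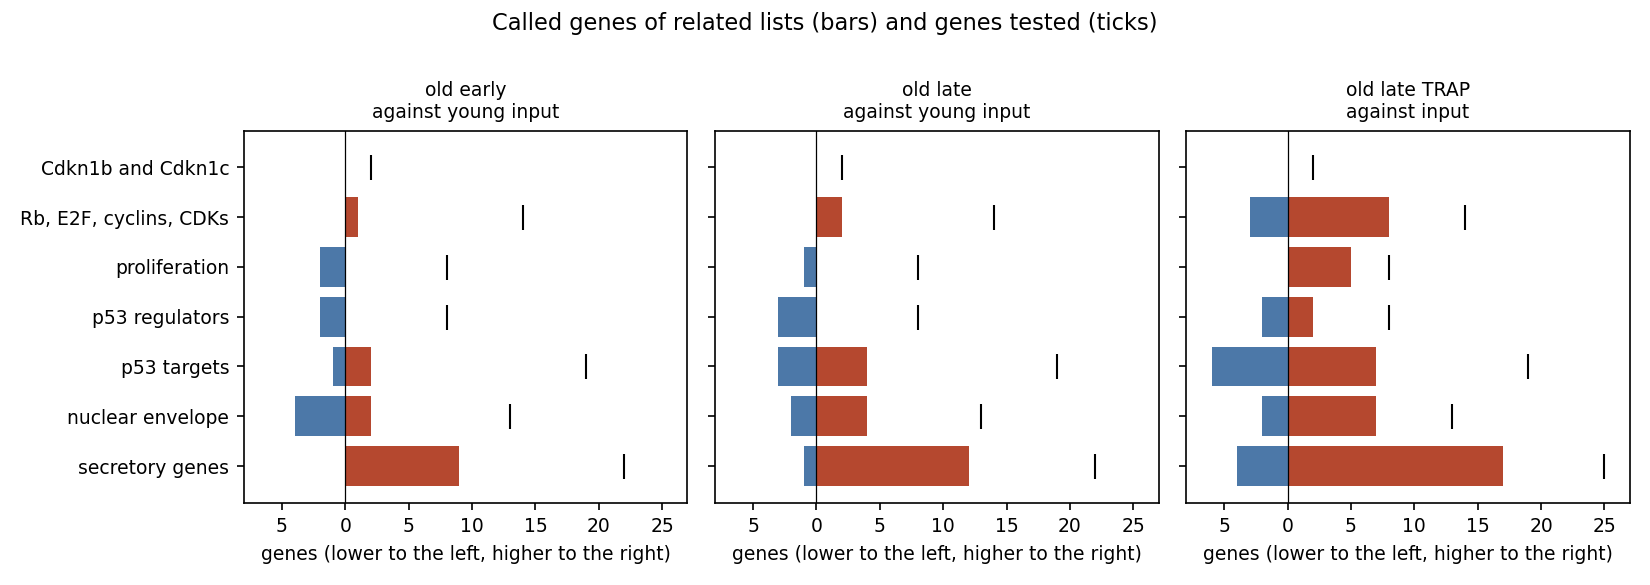
Number of genes called higher (red, right of 0) or lower (blue, left of 0) in 7 lists (y axis) in 3 comparisons, with a tick at the number of genes tested. The secretory list has 9 and 12 higher genes of 22 tested with age and 17 of 25 in TRAP. Of all genes, 13%, 17% and 30.4% were higher in these comparisons. Of the 17, 5 passed the filter only through TRAP, and the counts with age include Mmp12, which passed through the old libraries. The p53 targets are split between both directions in each panel.

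Genes whose levels ran most alike with each member across the 29 inputs were taken by Pearson r of log2 CPM. These correlations describe libraries that share age groups and tissue makeup. For Cdkn1a they were Dio2 (0.786), which encodes the enzyme that activates thyroid hormone, and Ppp1r3g (0.776), a glycogen regulator. For Lmna they were the stress transcription factor gene Atf3 (0.841) and Lgmn (0.808), a lysosomal protease gene. Mdm2 ran with Zfyve16 (0.79) and Top3b (0.754), and Cdkn2d with Cox5a (0.751), a respiratory chain gene, and Bri3 (0.738). Cdkn2c ran with 4930523C07Rik (0.699) and Anxa4 (0.66), Trp53 with Dhodh (0.656) and E130102H24Rik (0.65), and Lmnb1 with Tekt2 (0.625). Cdkn2a and Cdkn2b were too low for this measure. Among the 7 members themselves the highest r was 0.455, between Cdkn1a and Lmnb1, and Cdkn1a and Trp53 had an r of 0.038.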

How the data were processed

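PolyA RNA of mouse hippocampus was measured in 36 libraries. Expression was deposited by the authors as a single table of estimated counts, marked raw per the file headers, in which 77.2% of the nonzero values were not whole (tolerance 1e-06). The submitters' processing notes name mm10 and DESeq2. The aligner, counting tool and strand handling are not given in the sources used here, so reads of near-identical or overlapping genes cannot be told apart. Gene coordinates are those of the deposited table. Exon lengths came from GENCODE M21.

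Groups and sex follow the labels, and the animal number in the column names pairs TRAP with input. Deviations of paired libraries from group means correlated across 14072 genes at 0.366 to 0.527 within the 7 animals. Between different animals the values ran from -0.367 to 0.362, with a median of -0.108.

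Counts were rounded and tested with edgeR 4.0.16 in R 4.3.3: filterByExpr by group with a minimum count of 10, TMM, and quasi-likelihood F tests with Benjamini-Hochberg adjustment. The contrasts of input groups and of sex used 29 inputs with group and sex as terms. TRAP against input used 14 libraries with sex as covariate, and the interaction of age and sex the 22 early-induced inputs. Cdkn2a in inputs was tested by two-sided permutation of CPM in scipy 1.17.1. Alternatives were other scalings, filters, tools (DESeq2 1.42.0, limma 3.58.1 voom), terms and groups, the animal as a block, and each library left out in turn. Scripts were tested on simulated data. Reads carry no molecular identifiers, so floors of 3 counts cover counting error only, and p-values measure the spread between these animals.

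The members and lists were chosen with earlier results of these data known. The lists held 204 genes, of which 203 were matched, 2 by identifier. Named genes were all members, at most 4 called genes per list and contrast with the smallest p in each direction, Cdkn1b, Cdkn1c and Cx3cr1, and for each member the 2 genes most like it. Results of 1 gene are left out here.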

Additional observations from a re-analysis of the deposited data

Results flagged for a closer look

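A gap between 1 library and the others of its group was tested in 27 groups of member values, not in all. In 4 of these 27 a library lay far from the others, where chance alone gives about 1.35. Cdkn2a in young inputs was highest in replicate 2 at 0.546 CPM, and the next library had 0.243. Trp53 in young inputs was highest in replicate 3 at 23.7 CPM, with the next at 19.9. Trp53 in TRAP was highest in female replicate 3 at 39.5 CPM, with the next at 34.7. Lmna in old late-induced inputs was lowest in replicate 6 at 48.4 CPM, with the next at 52.7. The Lmna age differences in the old early-induced and old late-induced groups, which share their young inputs, differed from each other by a log2 fold change of 0.22 (edgeR adjusted p = 0.0257), the direct contrast of the old groups.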

How the results depend on the processing

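Members called numbered 2 to 4 in old early-induced against young inputs, 1 to 2 in old late-induced against young inputs, 0 to 1 between the old groups and 5 to 8 in TRAP against input when each library was left out in turn, against 3, 2, 1 and 7 with all libraries. Of all genes, the shares called higher and lower in these comparisons were 13% and 12.6%, 17% and 17.5%, 0.0268% and 0.00669%, and 30.4% and 28.8%. The TRAP counts include Cdkn2a, which passed the filter only through TRAP. With only the groups compared in the fit, 0 members were called between the old groups. The replicate block by animal called 7 members in TRAP and changed no member's call. Mdm2 in TRAP was -0.11 with upper quartile scaling, reversed from 0.03, while the median of all genes moved from -0.02 to -0.16.

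Over all genes, 5 were called between the old groups, but 58 by DESeq2, 3 by limma voom, 182 in females alone, 0 with only these groups, and 0 to 164 with a library left out (164 without old early-induced replicate 5). Females alone gave 1198 calls in place of 3826 in the early and 2787 in place of 5151 in the late age comparison. Sex calls in the inputs were 26, but 64 by DESeq2 and 12 in early-induced inputs. For the interaction of age and sex, edgeR called 0 genes (2301 at an unadjusted p under 0.05, 13 by DESeq2, 453 without old early-induced replicate 6). Library size scaling gave 3564 higher and 5748 lower genes in TRAP. Cdkn2a, Cdkn2b and Cdkn2c rest on few counts per library, which limits their precision. With 2 males in TRAP, sex differences there are imprecise.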
